A study of Mus musculus with 4 samples.

Results

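Marrow RNA of mice given cisplatin was set against marrow RNA of control mice, with 1 Affymetrix array for each group. The members are the genes of the array that carry a cluster of their own (a cluster is the probe group for a transcript). A gene is read from its brightest cluster, whose mean over the study's 4 arrays had to reach a floor of 5.235 (log2), the middle value of the clusters. Of 30702 named genes, 17196 met this, and 11226 of 19229 protein-coding genes did. The control group is labelled control only. The cisplatin group was treated with cisplatin, and the 2 other arrays are of mice given astragalus (Astragalus membranaceus, a root used as a herbal medicine) and of mice given electro-acupuncture. Whether those 2 groups also received cisplatin is not given in the sources used here, and the same holds for doses, strain, age and sex. All groups were sampled after 2 weeks of treatment, from marrow spun out of the tibia after the bone ends were cut off, and 6 marrow samples were mixed before RNA extraction. The mixing is read here as 6 per group, which the sources do not state outright.

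Cisplatin is a platinum drug that binds DNA and crosslinks its strands. Cells that meet such crosslinks in replication stall, call on the Fanconi anaemia and homologous recombination pathways to repair them, and may arrest or die through p53. Marrow is a dividing tissue that makes red cells, platelets, neutrophils and B cells beside stromal, fat and bone-forming cells, and low blood counts are a known side effect of the drug.

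Each difference below is the log2 level on the cisplatin array minus that on the control array. With 1 array per group there is no replicate check and no error can be attached to a value, so having so few arrays limits the precision. In RNA from whole marrow, fewer cells of a type and less RNA per cell cannot be told apart. The arrays carried the signature of marrow: the neutrophil genes S100a8 and S100a9 were at the scale's ceiling of 19.93 on every array, the granule gene Ngp at 18.77 on the control array, and the red cell heme gene Alas2 at 14.64. Median levels over all clusters were 5.27 for control and 5.26 for cisplatin, and 5.15 to 5.31 over the 4 arrays. At the ceiling on either array were 35 genes, 7 of them protein-coding, and no difference is given for them. Of 36 protein-coding genes at a mean level of 17 or more, the 7 at the ceiling included, 18 had equal values on the control and cisplatin arrays.

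Most protein-coding genes differed little between the arrays. The median difference was 0.01, the middle part of the genes (25th to 75th percentile) lay between -0.15 and 0.18, and the 5th and 95th percentiles were -0.45 and 0.58. Any higher value was seen for 51.0% of the 11226 genes and any lower value for 46.6%. At least 2-fold higher in cisplatin were 136 genes (1.21%), and at least 2-fold lower were 56 (0.499%). At 4-fold the counts were 28 higher and 2 lower. Over all gene types, 346 of 17196 genes were at least 2-fold higher (2.01%) and 166 lower (0.965%). The 2-fold genes were mostly bright ones: 92 of the 136 higher and 31 of the 56 lower genes had a mean level of 8.18 or more, where 2806 of the 11226 genes lie. At the threshold, Psma5 (a proteasome subunit) and Atp5k (an ATP synthase subunit) were inside at 1.0 and Tnfrsf13c inside at -1.0, while Flna (filamin) at 0.99 and Siglecg (an inhibitory B cell lectin) at -0.99 were outside. Of the 2-fold genes, 93 higher and 24 lower ones belong to the gene lists described here. The shares of 1.21% and 0.499% are the background for the count of 2-fold genes in each list.

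**Figure D1:**
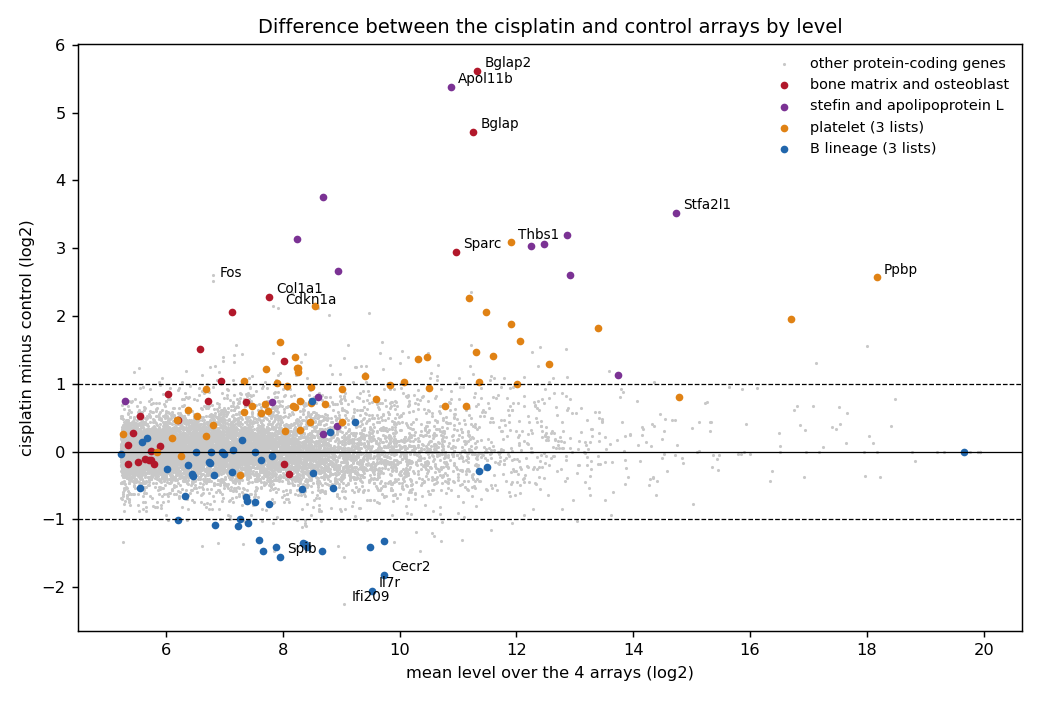
Each grey dot is a protein-coding gene, placed by its mean log2 level over the 4 arrays (x) and its log2 difference, cisplatin minus control (y), with dashed lines at 2-fold. Bone matrix, stefin and apolipoprotein L, platelet and B lineage genes are coloured; Bglap2 at 5.62 and Ifi209 at -2.25 are the highest and lowest protein-coding genes.

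Bone matrix genes held the largest difference of the comparison, but only some members of the list moved. Of 25 compared members 17 were higher and 8 lower. At least 2-fold higher were 8 (background 1.21%), and none was 2-fold lower. The median was 0.47 against 0.01 for all protein-coding genes. Bglap2 and Bglap encode osteocalcin, a calcium-binding protein that osteoblasts lay down in bone. Bglap2 read 8.47 on the control array, 14.09 on cisplatin, 12.23 on astragalus and 10.53 on electro-acupuncture, which made cisplatin 49.2-fold higher than control. Bglap read 8.96, 13.68, 11.95 and 10.45 in the same order. Both genes were lowest on the control array and highest on the cisplatin array. They are near-identical neighbours, so how the signal divides between them is uncertain.

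Sparc, a collagen-binding matrix protein, read 9.40 on control, 12.35 on cisplatin, 11.13 on astragalus and 11 on electro-acupuncture. Col1a1, a chain of type I collagen, read 6.87, 9.15, 7.79 and 7.25, and its partner chain Col1a2 read 6.26, 8.32, 7.19 and 6.74. All 3 followed the order seen for osteocalcin among control and cisplatin, the lowest and highest arrays. The small leucine-rich proteoglycans Dcn (decorin) and Bgn (biglycan) organise collagen fibres, and Mmp13 is a collagenase of bone. Dcn was highest on cisplatin too. Bgn read 6.87, 8.20, 8.40 and 8.59 and Mmp13 read 6.04, 7.08, 7.24 and 7.40, both highest on electro-acupuncture. Against control, Dcn, Bgn and Mmp13 were 1.51, 1.33 and 1.04 higher on cisplatin. Against these stood members within 0.33 of control: the osteoblast transcription factor Sp7 (-0.13), the homeobox factor Dlx5 (-0.16), the parathyroid hormone receptor Pth1r (-0.18), the osteocyte protein Mepe (-0.18), osteoglycin (Ogn, -0.18) and osteomodulin (Omd, -0.33). Ibsp, the bone sialoprotein gene, was at 5.42 and 5.70, close to the floor. Alpl (alkaline phosphatase of osteoblasts), Dmp1 and Sost (both made by osteocytes) lay under the floor on the control array at 4.84, 5.04 and 4.89 and on the cisplatin array at 5.14, 5.21 and 4.68. The list's median depends on how dim genes are handled: it was 0.17 with no floor and 1.33 with the floor at the 75th percentile.

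The 160 bases before the Bglap start site are shown because this gene pair led the comparison. The sequence is from RefSeq on GRCm38.p6, chr3:88384467-88384626, minus strand. Capitals mark ACCACA, the core letters bound by RUNX factors, among them RUNX2, the master regulator of osteoblasts. The letters start 132 bases before the start site, written -132.
Bglap: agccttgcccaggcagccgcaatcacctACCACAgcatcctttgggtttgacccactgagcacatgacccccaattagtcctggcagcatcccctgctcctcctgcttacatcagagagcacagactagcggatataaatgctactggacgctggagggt
On either strand, ACCACA occurs in 8.92% of 32851 RefSeq mouse promoter windows of this length, so the match is a description and not evidence of a bound site.

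Enzymes that process collagen did not follow the collagen chains as a group. Of 20 compared members 13 were higher and 6 lower, with a median of 0.11 and 1 gene past 2-fold. That gene was Serpinh1, the chaperone that collagen needs to leave the endoplasmic reticulum, at 6.22 on control, 7.35 on cisplatin, 6.37 on astragalus and 6.51 on electro-acupuncture. Its second, dimmer cluster was only 0.41 higher, so the 2-fold call rests on the cluster used. Colgalt1, which adds galactose to collagen, was -0.74, P4ha1 (a prolyl hydroxylase subunit) -0.34, and Loxl3 (a crosslinking oxidase) 0.10, near the median. All 5 of the other collagen chains that could be compared, such as Col6a1 (0.48), were higher by less than 2-fold, and 18 more with a cluster lay under the floor. In the list of other matrix and basement membrane proteins, 11 of 16 were higher and 4 lower, with a median of 0.11 and none past 2-fold. Ltbp1, which anchors latent TGF-beta in the matrix, was 0.73 higher and asporin (Aspn) was -0.56.

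Factors by which stroma supports blood formation were higher in 19 of 24 compared cases and lower in 5, with 5 at least 2-fold higher (background 1.21%), none 2-fold lower and a median of 0.33. That median was 0.15 with no floor and 0.615 with the floor at the 75th percentile. Cxcl12, the chemokine that holds stem cells and B cell precursors in the marrow, read 10.91 on control, 12.46 on cisplatin, 12.95 on astragalus and 13.28 on electro-acupuncture. Igfbp5, a binding protein of insulin-like growth factors made by stromal cells, read 8.38, 10, 10.28 and 10.14. For both genes the control array was the lowest of the 4. Esm1 (endocan of endothelial cells) was 1.27 higher, Angpt1 (the ligand of the TIE2 receptor, also held in platelets) 1.24 and Lepr (the leptin receptor, which marks stromal cells around sinusoids) 1.16. Kitl, the stem cell factor that binds the KIT receptor, was at 6.41 on control and 7.13 on cisplatin. Csf1, the growth factor of macrophages, was at 5.72 and 6.16. Flt3l, the ligand of the FLT3 receptor of lymphoid and dendritic precursors, was at 7.59 and 7.32. Il7, the cytokine of early B cells, lay under the floor at 4.79 and 4.92.

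Fat cell genes were higher in 15 of 20 compared cases and lower in 3, with 5 at least 2-fold higher (background 1.21%). The median was 0.22. Car3, a carbonic anhydrase abundant in fat cells, read 5.43 on control, 8.03 on cisplatin, 7.04 on astragalus and 6.71 on electro-acupuncture. Scd1, which desaturates fatty acids, read 10, 12.35, 12.09 and 10.44. Fabp4, a fatty acid carrier, read 7.74, 9.76, 9.04 and 8.66. On all 3 genes cisplatin was the highest array and control the lowest. Adipoq (adiponectin) was 1.46 higher, Lpl (lipoprotein lipase) 1.42 and Pparg, the transcription factor of fat cell formation, 0.88. Adipoq and Lpl, also past 2-fold, were lowest on control too but highest on electro-acupuncture, at 8.63 and 7.87. The cisplatin peak was therefore not common to all 2-fold genes of the list. Cd36, a fatty acid transporter that red cell precursors and macrophages carry too, was -0.62, and the insulin-responsive glucose transporter Slc2a4 was -0.42. Perilipin 4 (Plin4) and leptin (Lep) lay under the floor, at 5.10 and 4.58 on control. With the floor at the 75th percentile the list's median was 0.88.

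Endothelial genes were higher in 16 of 24 cases and lower in 8, by less than 2-fold throughout, and their median of 0.19 turned to -0.24 with the floor at the 75th percentile. Adgrf5, an adhesion receptor of endothelium, was 0.78 higher, Stab2, a scavenger receptor of sinusoids, 0.61, Kdr, the main VEGF receptor, 0.47, and Cdh5, the junction cadherin, 0.42. Icam2, an adhesion molecule also found on platelets and lymphocytes, was -0.44. Pericyte and smooth muscle genes had a median of 0.10 over 11 members, none past 2-fold, with the potassium channel subunit Abcc9 highest at 0.51. Among 18 osteoclast genes, 11 were higher and 6 lower, and the median of 0.03 turned to -0.02 when the arrays were centred on their medians. Past 2-fold were Ctsk, the collagen-cutting protease of osteoclasts (1.19), and Itgb3 (1.88), the integrin beta 3 chain that platelets also carry. Acp5, the tartrate-resistant phosphatase of osteoclasts, was at 8.08 on control and 8.01 on cisplatin, and Traf6, a signal adaptor of the RANK receptor, was -0.85.

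Tissue from outside the marrow was looked for with 3 lists. Skeletal muscle genes were above the floor in 10 of 21 cases, 5 higher and 5 lower, with median levels of 5.77 on control and 5.67 on cisplatin. Cartilage genes were above it in 3 of 15 cases, none more than 0.12 from control. The defining cartilage genes Acan, Col2a1 and Sox9 had means under the floor, at 4.51, 5.12 and 5.18 on control. Nerve sheath genes were above it in 4 of 12 cases, at median levels of 5.61 and 5.63. Whether tissue outside the marrow had a part in the bone matrix differences was not tested.

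Platelet genes were higher in nearly all cases. Of the 18 compared surface receptors, 17 were higher, 6 of them at least 2-fold, with a median of 0.83. Of the 16 granule cargo genes, all 16 were higher and 8 were at least 2-fold higher, with a median of 0.99. Of 26 genes for platelet shape, signalling and eicosanoids, 24 were higher, 11 of them at least 2-fold, with a median of 0.89. No gene of these 3 lists was 2-fold lower, and the background shares are 1.21% 2-fold higher and 0.499% lower. The 11 include Ctla2a and Ctla2b, 1.29 and 1.40 higher, which the list's name does not describe. The 3 lists were chosen with earlier results of these data known, so their counts only describe these arrays.

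Among receptors, Gp5, part of the von Willebrand factor receptor, read 9.75 on control, 11.81 on cisplatin, 12.02 on astragalus and 12.33 on electro-acupuncture. Itgb3, the beta chain of the fibrinogen receptor, read 10.50, 12.38, 12.37 and 12.41. Its partner chain Itga2b was 0.68 higher. For Gp5 and Itgb3 the control array was the lowest and the other 3 arrays lay together above it. Gp9, also of the von Willebrand factor receptor, was 1.23 higher, P2rx1 (an ATP-gated channel) 1.22, Gp6 (the collagen receptor) 1.11 and Clec1b (the podoplanin receptor) 1.02. The thromboxane receptor Tbxa2r was 0.20 higher, and Ptger3, a prostaglandin E receptor, was -0.06, the lowest of the list.

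Among cargo genes, Thbs1 (thrombospondin 1) read 9.61 on control, 12.70 on cisplatin, 12.53 on astragalus and 12.80 on electro-acupuncture. Ppbp, the precursor of platelet chemokines, read 16.06, 18.63, 18.96 and 19.04, and Pf4, platelet factor 4, read 15.24 and then 17.20 on each of the other 3 arrays. One value on 3 arrays leaves the size of the Pf4 difference, 1.96, uncertain. Timp3, a metalloproteinase inhibitor also made by stroma, was 1.62 higher, Plek (pleckstrin) 1.41 and F5 (coagulation factor V) 1.36. Vwf was 0.97 higher and the lowest member was Vegfc at 0.23.

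In the third group, Alox12, the platelet lipoxygenase, read 9.41 on control, 11.67 on cisplatin, 11.77 on astragalus and 11.93 on electro-acupuncture. Myl9, a myosin light chain, was 2.15 higher, Tuba4a and Tubb1, tubulins of the platelet marginal band, 1.82 and 1.63, Vcl (vinculin) 1.47 and Gng11 (a G protein subunit) 1.39. Mylk3, a myosin light chain kinase, was -0.34. Transcription factors that build megakaryocytes and red cells did not share this: of 17 compared, 11 were higher and 5 lower, with a median of 0.03 that turned to -0.02 when the arrays were centred. Gata1 was 0.29 higher, Nfe2, which drives platelet release, read 8.78 on both arrays, Runx1 differed by 0.05, and Fli1, which activates platelet genes, was 0.74 higher. Myb, which holds progenitors in division and opposes megakaryocyte formation, read 11.66 on control, 10.34 on cisplatin, 10.59 on astragalus and 10.24 on electro-acupuncture, a difference of -1.32.

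**Figure D2:**
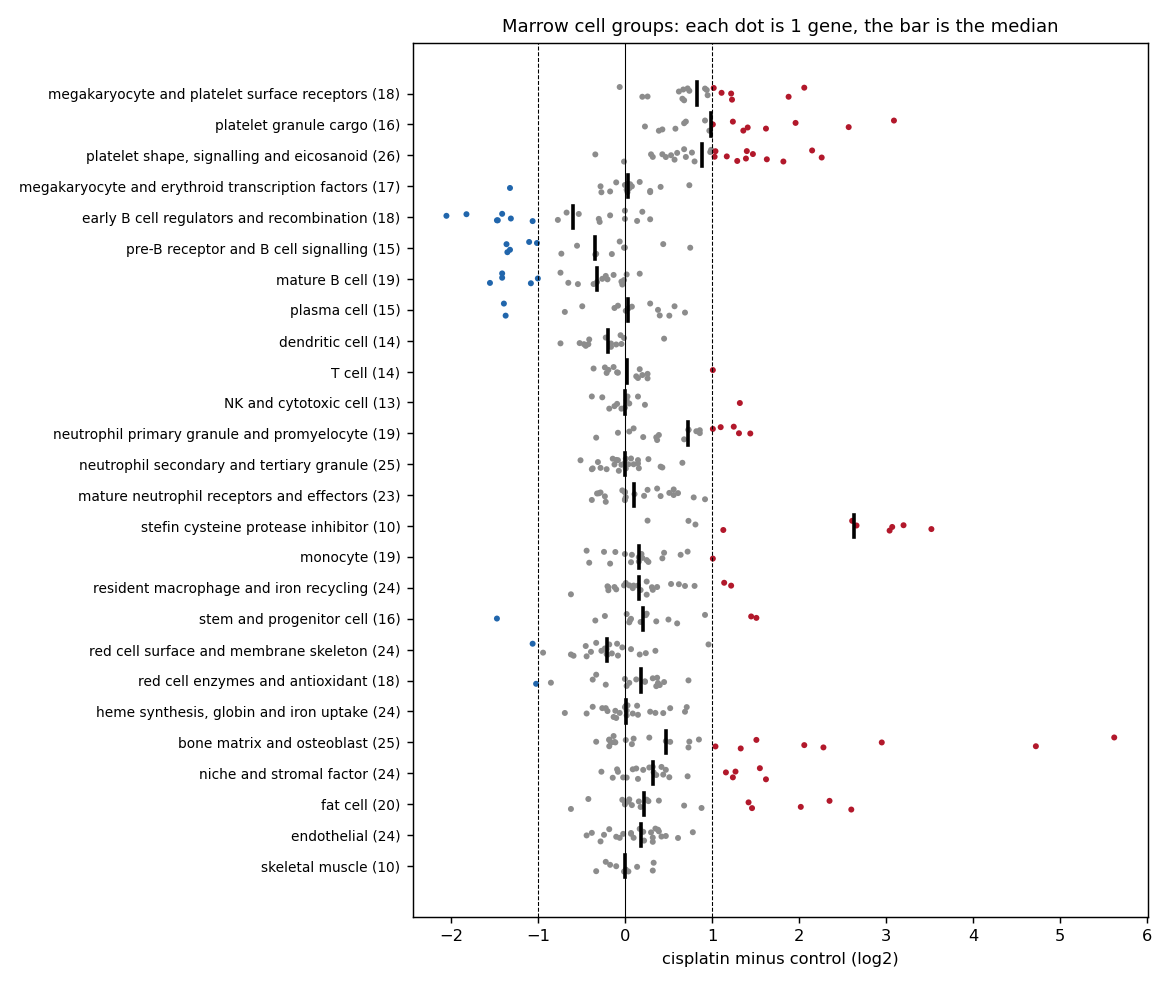
Log2 differences, cisplatin minus control, for the genes of 26 marrow cell lists (number compared in brackets); each dot is a gene, red at 2-fold higher, blue at 2-fold lower, and the black bar is the list's median. Platelet, stefin and primary granule lists sit to the right (medians of 0.83 to 0.99, 2.63 and 0.73) and the 3 B lineage lists to the left (-0.60, -0.34 and -0.32).

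B lineage genes were mostly lower, and the list of early steps had the lowest median. Of 18 early regulators and recombination genes, 13 were lower and 3 higher, and 7 were at least 2-fold lower, with a median of -0.60. Of 15 pre-B receptor and signalling genes 12 were lower, 5 of them 2-fold, with a median of -0.34. Of 19 mature B cell genes 17 were lower, 5 of them 2-fold, with a median of -0.32. No gene of the 3 lists was 2-fold higher, and the background share of 2-fold lower genes was 0.499%. The 7 early genes include Cecr2 and Akap12, a chromatin remodelling protein and a kinase scaffold. These lists were chosen with earlier results of these data known, so their counts are a description only.

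Il7r, the receptor chain through which early B cells receive interleukin 7, read 10.81 on control, 8.76 on cisplatin, 9.47 on astragalus and 9.05 on electro-acupuncture. Cecr2, a bromodomain protein of chromatin remodelling, read 10.87, 9.05, 9.72 and 9.30. Ebf1, the factor that commits cells to the B lineage, read 10.40, 8.99, 9.39 and 9.19. Each of these had its highest value on control and its lowest on cisplatin. The transcription factors Sox4 and Bach2 were -1.47 and -1.46, and Akap12, a kinase scaffold, was -1.31. Ikzf3, a lymphoid zinc finger factor, was -1.06. Foxo1, which supports Il7r and recombinase expression, was -0.67. The recombinase gene Rag2 was at 5.66 and 5.13, near the floor, Dntt (terminal transferase) was at 6.51 and 6.34, and Bcl11a, needed for B cell development, was 0.29 higher.

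Of the receptor genes, Cd79a and Cd79b, the signalling chains of the B cell receptor, were -1.36 and -1.32, and the adaptor Blnk was -1.35. Cd79a read 9.20 on control, 7.84 on cisplatin, 8.20 on astragalus and 8.29 on electro-acupuncture. Vpreb3 was -1.10 and the kinase Blk -1.01, while the surrogate light chain genes Vpreb1 and Vpreb2 were -0.34 and -0.15. Btk, a kinase shared with myeloid cells, was 0.44 higher, and Dapp1, an adaptor also found in platelets, 0.75. Cd24a read 19.66 on all 4 arrays, so it carries no measurable difference. Among mature B cell genes, Spib, an ETS factor, read 9.03, 7.48, 7.86 and 7.42. Cd72 and Fcrla, a surface receptor and an intracellular Fc receptor-like protein of B cells, were both -1.41, Pou2af1, an octamer coactivator, -1.08, and Tnfrsf13c, the BAFF receptor, -1.0. Ms4a1 (CD20) was -0.74, Cd22 -0.33, and Fcer2a, the low-affinity IgE receptor, -0.20.

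Plasma cell genes went both ways, 9 higher and 6 lower of 15, with a median of 0.04 that turned to -0.01 when the arrays were centred. Irf4, a factor of pre-B and plasma cells, read 7.48 on control, 6.09 on cisplatin, 6.71 on astragalus and 6.22 on electro-acupuncture. Slamf7, a surface receptor, was -1.37, whereas the immunoglobulin joining chain Jchain was 0.69 higher and Sdc1 (CD138) was at 5.45 and 5.49. Several of the lower genes outside the lists are also known from lymphoid cells: Dpp4, a surface peptidase, was -1.46, Niban3, a B cell protein, -1.46, Slamf6 -1.05 and Aff3, a lymphoid nuclear factor, -1.07. Glcci1, a gene named for induction by glucocorticoids, was -1.56.

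T cell genes split evenly, 7 higher and 7 lower of 14, and only Lat, a signal adaptor that platelets use as well, passed 2-fold at 1.01. NK and cytotoxic genes were higher in 6 and lower in 6 of 13, with Nkg7, a granule membrane protein, at 7.20 on control and 8.52 on cisplatin. Median control levels of the 2 lists were 5.67 and 5.56, near the floor. Of 14 dendritic cell genes 13 were lower, none by 2-fold, and their median was -0.19. Siglech, a receptor of plasmacytoid dendritic cells, was -0.74 and Irf8, a factor of dendritic and monocyte precursors, -0.47, while Clec9a, a receptor of cross-presenting dendritic cells, was 0.45 higher. MHC class II presentation genes had a median of -0.06 over 14 members, which turned to 0.02 with the floor at the 75th percentile, with H2-DMb1 lowest at -0.56 and Lgmn, a lysosomal protease, highest at 0.45. MHC class I presentation genes had a median of 0.07 over 15, with Calr (calreticulin) at 0.82 and B2m at 0.57.

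Neutrophil genes differed by granule stage. Of 19 genes of primary granules and promyelocytes, the earliest stage, 17 were higher and 5 at least 2-fold higher (background 1.21%). Their median was 0.73. Of 25 genes of secondary and tertiary granules, 12 were higher, 12 lower and none past 2-fold, with a median of 0.00. Mpo (myeloperoxidase) read 11.70 on control, 12.80 on cisplatin, 13.75 on astragalus and 13.25 on electro-acupuncture, and its difference of 1.10 was 0.95 after quantile normalization. Ctsg (cathepsin G) was 1.31 higher, Elane (neutrophil elastase) 0.86, Ms4a3, a membrane protein of granulocyte precursors, 1.01, and Gstm1, a glutathione transferase, 1.25. Igfbp4, which stromal cells also make, was 1.44 higher, and the factors Cebpa and Cebpe, which drive granulocyte formation, 0.68 and 0.36. At the later stage Camp (cathelicidin) was -0.37, Ltf (lactoferrin) -0.28, Mmp8 0.16, Lcn2 (lipocalin 2) 0.43 and Hp (haptoglobin) 0.66. Receptors and effectors of mature neutrophils had a median of 0.11, with 12 higher, 7 lower, 2 equal and 2 at the ceiling, and with Il1b at 0.92 and the G-CSF receptor Csf3r at -0.32. Genes of the NADPH oxidase, which makes superoxide, ranged from -0.17 for Cyba to 0.43 for Rac1.

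Stefins, small inhibitors of cysteine proteases that neutrophils carry in their cytosol, stood well above both granule groups. All 10 compared members of the stefin and cystatin list were higher and 7 at least 2-fold (background 1.21%), with a median of 2.63. Stfa2l1 read 12.15 on control, 15.67 on cisplatin, 16.96 on astragalus and 14.13 on electro-acupuncture. Stfa2 read 10.52, 13.72, 15.01 and 12.23, and Stfa1 read 9.84, 12.91, 14.56 and 12.61. On these 3 genes the order was control, electro-acupuncture, cisplatin, astragalus, from lowest to highest. Cstdc6 was 3.04 higher, Cstdc5 2.66, Stfa3 2.61 and Cstdc4 1.13, and the related Csta3 and Csta2, outside the list, were 2.34 and 1.03 higher. Other members differed less: Cstb (stefin B) was 0.81, Cst7 (cystatin F) 0.73 and Cst3 (cystatin C) 0.26 higher. The clustered genes are close copies whose signals may overlap.

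The last 90 bases before the start sites of 6 stefin genes, from RefSeq on GRCm38.p6, chromosome 16, are shown because these neighbouring genes were higher together. Capitals mark ACCTTTAAAACC, the longest run that at least 7 of the 8 stefin family windows share, which was therefore chosen from these sequences.
Stfa2l1: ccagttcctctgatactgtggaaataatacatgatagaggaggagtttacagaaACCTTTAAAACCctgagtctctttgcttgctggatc
Stfa2: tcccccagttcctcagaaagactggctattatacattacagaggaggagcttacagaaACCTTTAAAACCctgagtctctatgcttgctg
Stfa1: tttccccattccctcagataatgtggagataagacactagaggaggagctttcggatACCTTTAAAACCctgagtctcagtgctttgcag
Stfa3: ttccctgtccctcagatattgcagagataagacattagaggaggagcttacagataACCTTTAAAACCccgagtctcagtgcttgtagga
Cstdc4: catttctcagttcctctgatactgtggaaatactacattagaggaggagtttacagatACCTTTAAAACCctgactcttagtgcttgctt
Cstdc5: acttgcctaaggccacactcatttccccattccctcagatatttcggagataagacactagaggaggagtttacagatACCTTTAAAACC
These are chr16:36156721-36156810 (plus strand), chr16:36408364-36408453 (minus), chr16:36277058-36277147 (plus), chr16:36455393-36455482 (minus), chr16:36184122-36184211 (plus) and chr16:36367571-36367660 (minus). Searched on either strand, the letters occur in the last 90 bases of 10 of 32851 windows. Of the 8 stefin family genes with a window, Csta2 alone does not hold them.

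Apolipoprotein L genes, relatives of a human serum protein with pore-forming family members, were split in the same way between close copies and the rest. Apol11b read 7.99 on control, 13.37 on cisplatin, 10.97 on astragalus and 11.17 on electro-acupuncture, a 41.6-fold difference. Apol11a read 6.71, 10.47, 8.76 and 8.84, and Apol10a read 6.58, 9.71, 8.11 and 8.58. For all 3 genes control was lowest, cisplatin highest, and the other arrays lay between. As close copies their signals may overlap, so how the signal divides between them is uncertain. Apol10b was at 4.87 and 5.62, Apol8 was 0.38 higher, and the other 8 of 13 members, from Apol6 to Apol9b, lay under the floor. The median over the 5 compared genes was 3.13, and over all 13 without the floor it was 0.21.

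The 140 bases before a start site of the 3 leading genes are shown to set the copies side by side, from RefSeq on GRCm38.p6. The start sites are those of the promoter table; for Apol11a and Apol10a they lie inside the RefSeq gene span, which begins further upstream, so these windows overlap the annotated genes. Capitals mark GAAA repeated after any 2 bases, a form of the element that interferon-regulated genes share, here read from the opposite strand.
Apol11a: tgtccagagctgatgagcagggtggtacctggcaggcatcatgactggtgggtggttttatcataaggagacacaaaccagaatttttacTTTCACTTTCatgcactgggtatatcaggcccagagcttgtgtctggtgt
Apol11b: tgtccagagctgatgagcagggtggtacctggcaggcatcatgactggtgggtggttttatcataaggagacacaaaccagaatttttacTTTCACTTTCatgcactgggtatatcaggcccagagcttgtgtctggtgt
Apol10a: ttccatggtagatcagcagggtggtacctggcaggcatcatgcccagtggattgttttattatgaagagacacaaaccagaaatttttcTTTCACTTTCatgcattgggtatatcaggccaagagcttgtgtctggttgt
They lie at chr15:77508129-77508268 (plus strand), chr15:77643287-77643426 (minus) and chr15:77476907-77477046 (plus). Over the 250 bases before these start sites, Apol11a and Apol11b had the same base at 250 positions, and Apol10a matched either at 211 of 249. The repeat occurs on either strand in 1.47% of all windows of 140 bases, and a match is a description only.

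Monocyte genes were higher in 13 of 19 cases and lower in 5, with a median of 0.16. Ccl9, a chemokine of myeloid cells, was 1.01 higher and Fcgr4, a receptor for IgG, 0.72, while Ly6c2 was -0.44 and the fractalkine receptor Cx3cr1 -0.41. Resident macrophage and iron recycling genes were higher in 17 of 24, 2 of them at least 2-fold (background 1.21%), with a median of 0.17. Vcam1, an adhesion molecule of macrophages and stroma, read 8.69 on control, 9.91 on cisplatin, 10 on astragalus and 10.25 on electro-acupuncture. Hmox1, the heme oxygenase, read 8.05, 9.19, 8.92 and 9.76. Both were lowest on control. Mrc1, the mannose receptor, was 0.62 higher and Cd163, the haemoglobin scavenger receptor, 0.18, whereas Vsig4, Trem2, Timd4 and C1qc, all genes of tissue macrophages, lay between -0.20 and -0.12. Eosinophil genes had a median of 0.05 over 10 members, with the granule protein Prg2 at 12.87 and 13.58. Of the basophil and mast cell genes Prss34, a basophil protease, was -1.01 and Mcpt8 -0.55.

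Stem and progenitor genes were higher in 13 of 16 compared cases, with a median of 0.21, but the 2-fold members are shared with other cells. Ifitm3, an interferon-inducible membrane protein, was 1.51 higher, Slamf1 (CD150, also on megakaryocytes) 1.45, and Sox4 was -1.47. Ifitm2, outside the list, read 7.54 on control, 9.58 on cisplatin, 10.51 on astragalus and 10.24 on electro-acupuncture. Kit read 6.77 and 6.79 and Cd34 6.17 and 6.22. Cd93, a receptor of early B and progenitor cells, was -1.10. In the list of cytokines and receptors of blood formation, 15 of 29 were higher and 13 lower, with a median of 0.02 that changed sign under scaling. Il7r was the only 2-fold member, Epor (the erythropoietin receptor) was -0.29, the signal chain Il6st 0.63 and the leukaemia inhibitory factor receptor Lifr 0.52.

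Red cell genes were split by function. Of 24 surface and membrane skeleton genes, 19 were lower and 1 was at least 2-fold lower (background 0.499%), and the median was -0.21. Tspan8, a tetraspanin, read 12.37 on control, 11.31 on cisplatin, 12.24 on astragalus and 11.78 on electro-acupuncture. Kel, the Kell blood group protein, read 14.10, 13.16, 13.93 and 13.27. For both, cisplatin was the lowest array. Rhd was -0.62 and the skeleton protein Epb42 -0.59, but the urea transporter Slc14a1 was 0.96 higher and Rhag 0.24. Red cell enzymes were higher in 12 of 18, with a median of 0.18. Car1, a carbonic anhydrase of red cells, read 13.37, 12.35, 13.42 and 13.03 and was the only 2-fold member, Bpgm, which tunes oxygen release, was -0.85, and Sod1, superoxide dismutase, was 0.73 higher. Heme synthesis, globin and iron uptake genes had 13 higher and 10 lower of 24, and the median of 0.02 changed sign under centring. Alas2 was 0.35 higher, Fech, which inserts iron into heme, 0.44, Cpox 0.52, and Ppox, the step between them, -0.69. Regulators of red cell maturation had a median of -0.05 over 26, with the factor Sox6 at -0.70 and none past 2-fold.

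The p53 targets did not move together. Of 31 compared, 16 were higher and 14 lower, with 2 at least 2-fold higher (background 1.21%). The median was 0.03, or -0.02 when the arrays were centred. Cdkn1a, the cyclin kinase inhibitor p21, read 6.64 on control, 8.76 on cisplatin, 8.03 on astragalus and 8.27 on electro-acupuncture, with control the lowest. Ccng1 (cyclin G1) read 8.10, 9.35, 9.64 and 9.84, again with control the lowest. Phlda3, a repressor of AKT, was 0.58 higher and Psrc1, a spindle protein, 0.52. In contrast Fas (a death receptor) was -0.51, Sesn1 (a sestrin) -0.50, Ddb2 (a DNA damage sensor) -0.52, Trp53inp1 -0.52 and Rrm2b (a ribonucleotide reductase subunit) -0.42. Mdm2, the p53 ligase, was at 9.22 on control and 9.18 on cisplatin. Aen, a nuclease, and Plk2, a kinase, were 0.37 and 0.32 higher.

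Genes that repair platinum lesions differed little. Among damage sensors and checkpoint kinases 19 of 26 were lower, the median was -0.12 and the range ran from -0.47 to 0.31. The kinase genes Atm and Atr were at -0.04 and -0.10, and the mitotic phosphatases Cdc25c and Cdc25b at -0.47 and -0.45. Fanconi anaemia and crosslink repair genes were lower in 20 of 28, with a median of -0.10. Fancd2, whose protein is marked with ubiquitin at crosslinks, was at 7.42 and 7.39, Rev3l, the catalytic chain of a bypass polymerase, was -0.31, and Faap24, a partner of the FANCM helicase, and Dclre1b, a nuclease, were 0.53 and 0.51 higher. Homologous recombination and mismatch repair genes were lower in 20 of 23, with a median of -0.20, from -0.41 for Brca2 to 0.21 for Rad51d. Nucleotide excision repair genes were higher in 12 of 19, with a median of 0.06; Xpa, the damage verifier, was at 8.98 and 9.04, and Gtf2h1, a subunit of TFIIH, was 0.50 higher. None of these 4 lists held a gene past 2-fold. Ercc1, the nuclease subunit known for its tie to platinum resistance, was at 5.59 and 5.44, near the floor.

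Transport and detoxification genes differed in degree. Of 20 copper, platinum and drug transport genes, 13 were higher and 6 lower, all within 0.24 of control, with a median of 0.07. Slc31a1, the copper importer CTR1 that also takes up cisplatin, was at 6.84 and 7.08, and the copper exporter Atp7b at 6.49 and 6.56. Metallothionein, glutathione and NRF2 genes were higher in 22 of 30, 3 of them at least 2-fold (background 1.21%), with a median of 0.28. Mt2, a metallothionein that binds metals including platinum, read 9.70 on control, 11.28 on cisplatin, 11.94 on astragalus and 11.99 on electro-acupuncture. Mt1 read 7.55, 8.42, 9.31 and 9.18. Both were lowest on control. Gstp1, a glutathione transferase, was 0.92 higher, Txnrd1 (thioredoxin reductase) 0.64 and Gsr (glutathione reductase) 0.62. The NRF2 targets Gclc, the limiting enzyme of glutathione synthesis, and Nqo1 were -0.51 and -0.31. Gpx4, which guards lipids from oxidation, was at 6.58 and 6.78.

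Cell death genes stayed within 2-fold. BCL2 family genes were higher in 11 of 19 and lower in 7, with a median of 0.11: Bak1, a pore former, was 0.47 higher and Mcl1 0.30, while the death-promoting members Bmf and Bcl2l11 (BIM) were -0.65 and -0.44 and Bbc3 (PUMA) -0.05. Caspase, death receptor and IAP genes had a median of 0.01 over 27, with cytochrome c (Cycs) highest at 0.71.

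Immediate early genes, which respond to stimuli within minutes, were higher in 18 of 27 cases. Of these, 3 were at least 2-fold higher (background 1.21%), and the list's median was 0.10. Fos read 6.43 on control, 8.95 on cisplatin, 5.58 on astragalus and 6.23 on electro-acupuncture. Cisplatin alone was high. Dusp1, a MAP kinase phosphatase, read 8.0, 9.09, 8.16 and 8.39, Ier2 read 6.65, 7.55, 6.49 and 5.81, and Zfp36, which destabilises cytokine RNA, read 9.87, 10.54, 9.50 and 9.93. The cisplatin array was the highest of the 4 for each of these too. Jun was at 5.0 on control, under the floor, and 6.17 on cisplatin. Egr2, Egr3 and Ier3 lay between -0.23 and -0.09, and Btg1, a brake on division, was -0.52.

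Glucocorticoid response genes were higher in 17 of 19, with a median of 0.23, but the 2-fold members Mt2 and Dusp1 belong to other lists as well. Tsc22d3 (GILZ) was 0.29 higher, Per1 0.20, Fkbp5, a chaperone of the receptor, 0.24, and the receptor gene Nr3c1 was at 8.03 and 8.0. Circadian clock genes had a median of 0.06 over 14, from Arntl (BMAL1) at -0.39 to Clock at 0.35. Heat shock genes were higher in 12 of 17, with a median of 0.39 and none past 2-fold: the mitochondrial chaperones Hspe1 and Hspd1 were 0.94 and 0.78 higher and the co-chaperone Stip1 0.91. Hspa8 was at the ceiling. Genes of protein folding in the endoplasmic reticulum and the unfolded protein response were higher in 29 of 37, with a median of 0.33. Ssr2, a subunit of the translocon-associated complex, read 8.25 on control, 9.52 on cisplatin, 10.15 on astragalus and 9.80 on electro-acupuncture. The chaperone Hspa5 (BiP) was 0.83 higher, while the stress sensors Atf6, Eif2ak3 (PERK) and Ern1 (IRE1) were -0.43, -0.41 and -0.14 and the stress factor Ddit3 (CHOP) -0.23. ATF4 and amino acid stress genes had a median of 0.13 over 18, with Shmt2, an enzyme of one-carbon metabolism, highest at 0.84.

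Genes of mitosis were lower almost throughout, in 45 of 50 cases, with 4 higher, none past 2-fold and a median of -0.36. Of all protein-coding genes, 46.6% were lower by any amount. Kif11, the motor that separates spindle poles, read 12.93 on control, 12.09 on cisplatin, 13.39 on astragalus and 12.74 on electro-acupuncture. Anln, which builds the cleavage ring, read 11.11, 10.19, 11.13 and 10.36, and Top2a (topoisomerase II) read 15.21, 14.43, 15.44 and 15. For all 3 the cisplatin array was the lowest. Not every member followed this order: Prc1 and Kif23, for example, were lowest on electro-acupuncture. Mki67, a marker of dividing cells, was at 17.97 and 17.61. Plk1 and Aurka, mitotic kinases, were at 0.00 and -0.02, and Ccnb2 (cyclin B2) was 0.17 higher. DNA replication and nucleotide supply genes did not share this: 18 were higher and 25 lower of 45, with a median of -0.02, from Gmnn (geminin) at -0.58 to Gins4 at 0.28. Of 27 cyclin, CDK, inhibitor and E2F genes, 16 were lower and 9 higher, with a median of -0.06. Beside Cdkn1a the inhibitors went different ways, with Cdkn1b (p27) at -0.76, Cdkn2c (p18) at -0.73 and Cdkn2d (p19) at 0.02. Rb1 was -0.72, while Ccnd2 (cyclin D2) was 0.81 higher. Replication-dependent histone genes had a median of 0.11 over 24, the only ones of 65 listed with a cluster of their own. The linker histone H1f2 was at 1.16, H3c3 at 1.12 and H2bc9 at -0.57. H2az2, which encodes a histone H2A.Z variant and lies outside the list, read 10.49 on control and 9.16 on cisplatin.

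**Figure D3:**
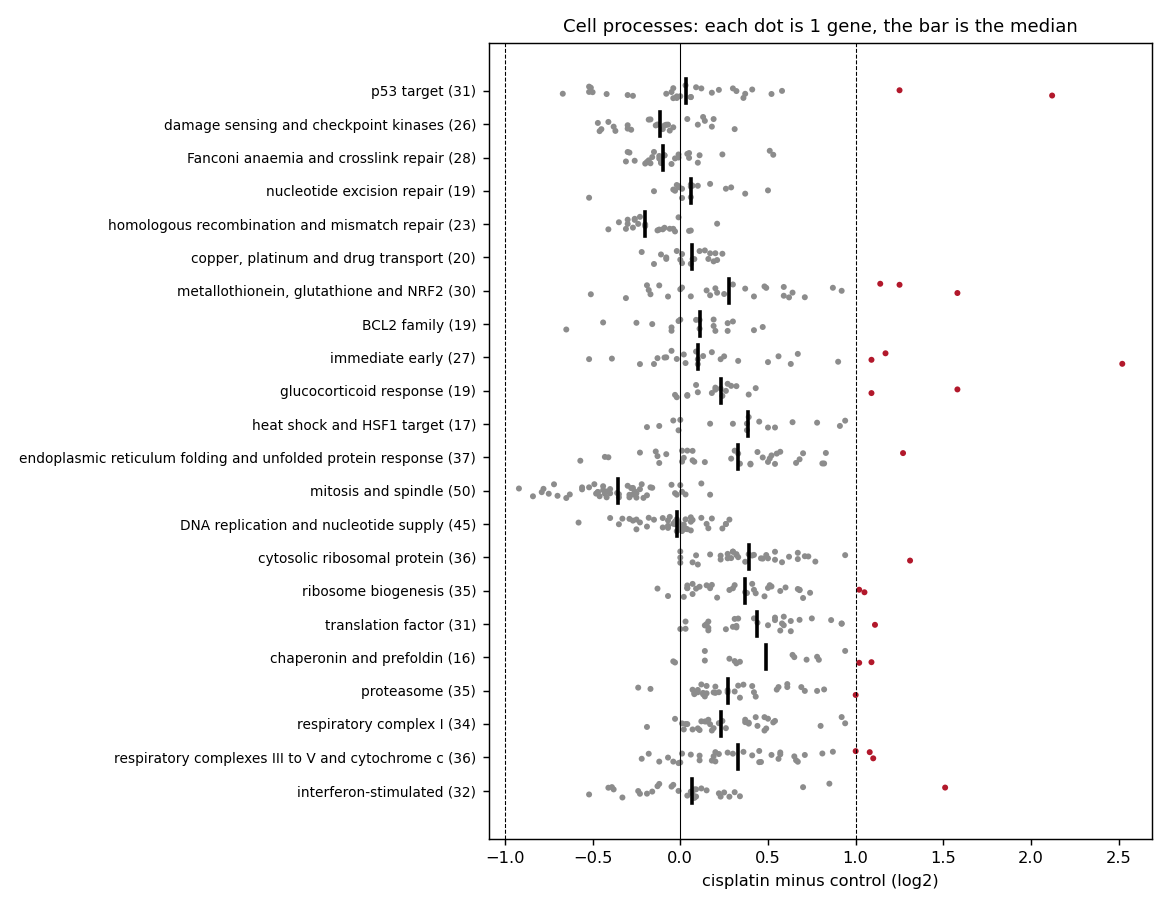
Log2 differences, cisplatin minus control, for the genes of 22 lists of damage response, stress, division, protein supply and interferon response (number compared in brackets), drawn as dots with the list's median as a bar. Repair lists have medians from -0.20 to 0.06, mitosis lies at -0.36, and ribosome, translation and chaperonin lists lie between 0.37 and 0.49.

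Genes that make and fold proteins were higher in nearly all cases, by small amounts. Cytosolic ribosomal protein genes were higher in 33 of 36 compared cases and lower in none, with 1 at the ceiling and a median of 0.39. Only these 36 of the 81 listed had a cluster of their own. Translation factors were higher in 30 of 31 and lower in none, with a median of 0.44, led by Etf1, the release factor, at 9.67 on control, 10.78 on cisplatin, 11.06 on astragalus and 11.08 on electro-acupuncture. Ribosome biogenesis genes were higher in 33 of 35, with a median of 0.37, and the nucleolar proteins Nolc1 and Ncl (nucleolin) were 1.05 and 1.02 higher. Chaperonin and prefoldin genes were higher in 14 of 16, with a median of 0.49, and the subunit Cct2 and the cofactor Pdcl3 were 1.09 and 1.02 higher. These counts stand beside 51.0% of all protein-coding genes higher by any amount. For the ribosomal protein Rpl27, at 1.31, the cluster used carries an identifier of another chromosome than the gene's, and its other cluster was 0.50 higher, so its value is uncertain.

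Related groups had medians from 0.15 to 0.33. Aminoacyl-tRNA synthetase genes were higher in 15 of 19, with a median of 0.29 and Rars (for arginine) at 0.90. Proteasome genes were higher in 33 of 35, with a median of 0.27, from the activator Psme4 at -0.24 to Psma5 at 1.0. Mitochondrial ribosomal protein genes were higher in 60 of 73, with a median of 0.15, and Mrpl42 was the only 2-fold member at 1.47. Spliceosome proteins were higher in 30 of 40, with a median of 0.20 and Lsm7, of the ring that binds U6 RNA, at 1.11 in the cluster used and 0.61 in its other cluster. Complex I genes were higher in 32 of 34, with a median of 0.23, and complexes III to V and cytochrome c in 29 of 36, with a median of 0.33. Among the latter Cox5b, a cytochrome oxidase subunit, read 10.99 on control, 12.09 on cisplatin, 12.77 on astragalus and 12.68 on electro-acupuncture. The mitochondrial gene ND2 was 1.56 higher at levels of 18.23 and 19.79, close to the ceiling. Citric acid cycle genes were higher in 18 of 22 (median 0.18, Mdh2 highest at 0.80) and glycolysis genes in 18 of 25 (median 0.27, Tpi1 highest at 0.78). Gapdh was 0.62 higher and Actb 0.12.

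Lipid and membrane compartments were less even. Fatty acid oxidation genes were higher in 15 of 19, with a median of 0.18, and Hadh highest at 0.66 from a control level under the floor. Fatty acid synthesis and handling genes had a median of 0.09 over 21, and their 2-fold members Scd1 and Fabp4 belong to the fat cell list too. Cholesterol synthesis and uptake genes had a median of 0.07 over 22, between -0.24 for the regulator Srebf2 and 0.53 for Nsdhl. Cathepsin and lysosome genes were higher in 22 of 32, with a median of 0.16, and beside Ctsk the membrane protein Lamp1 was 1.05 higher, while Ctse, a cathepsin abundant in red cell precursors, was -0.64. Proton pump genes had a median of 0.14 over 17, with the subunit Atp6v0e at 1.14 and the accessory protein Atp6ap1 at -0.72. Actin cytoskeleton genes were higher in 32 of 37, with a median of 0.17 and the tropomyosin Tpm2 at 0.95. Of the 17 tubulin genes, only Tuba4a and Tubb1, named with the platelet genes, passed 2-fold.

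Interferon-stimulated genes showed no common shift: 18 were higher and 14 lower of 32, with a median of 0.07. Ifitm3 was the only 2-fold member, Rtp4 and Oas1a were 0.85 and 0.70 higher, and the classic targets Ifit1 and Ifit3 were -0.52 and -0.38. In the p200 family, DNA-sensing proteins induced by interferon, Ifi209 read 10.63 on control, 8.38 on cisplatin, 8.97 on astragalus and 8.24 on electro-acupuncture, the lowest difference of all protein-coding genes at -2.25. Control was the high array. Aim2, which triggers inflammasomes on DNA, was -0.76 and Mndal -0.65, while Ifi207 was 0.35 higher, so the 7 compared members went 3 up and 4 down. Guanylate-binding and immunity-related GTPase genes had a median of -0.04 over 11, which changed sign after quantile normalization; Igtp was 1.09 higher and Gbp9 -0.52.

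Chemokines and receptors had a median of 0.05 over 28, with 3 members at least 2-fold higher (background 1.21%). Cxcl9, which attracts activated T cells, read 6.37 on control, 8.52 on cisplatin, 7.97 on astragalus and 8.48 on electro-acupuncture, and the others were Cxcl12 and Ccl9. Toll-like receptor, inflammasome and NF-kB genes had a median of 0.13 over 31, with Il1a at 1.06, Il1b at 0.92, the receptor antagonist Il1rn at 0.71 and the flagellin receptor Tlr5 at -0.68. Complement and coagulation genes were higher in 17 of 24, with a median of 0.23: beside F5, the anticoagulant protein S (Pros1) was 0.94 higher, the complement inhibitor Serping1 0.81, Tfpi 0.80 and thrombomodulin (Thbd) -0.54. Integrin genes had a median of 0.11 over 16, or 0.67 with the floor at the 75th percentile, with the beta 1 chain Itgb1 at 0.95 behind Itgb3. In the S100, annexin and galectin list 15 of 21 were higher, 4 lower and 2 at the ceiling, with Lgals1 (galectin 1) at 1.38 and Anxa5 at 0.79. Developmental pathways stayed close to control. Notch genes had a median of -0.04 over 21, while those of the TGF-beta and BMP (25 genes) and Wnt (20 genes) pathways were 0.02 and 0.01 and changed sign under scaling. No gene of these 3 passed 2-fold; Lgr5, a Wnt-amplifying receptor, was -0.73.

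**Figure D4:**
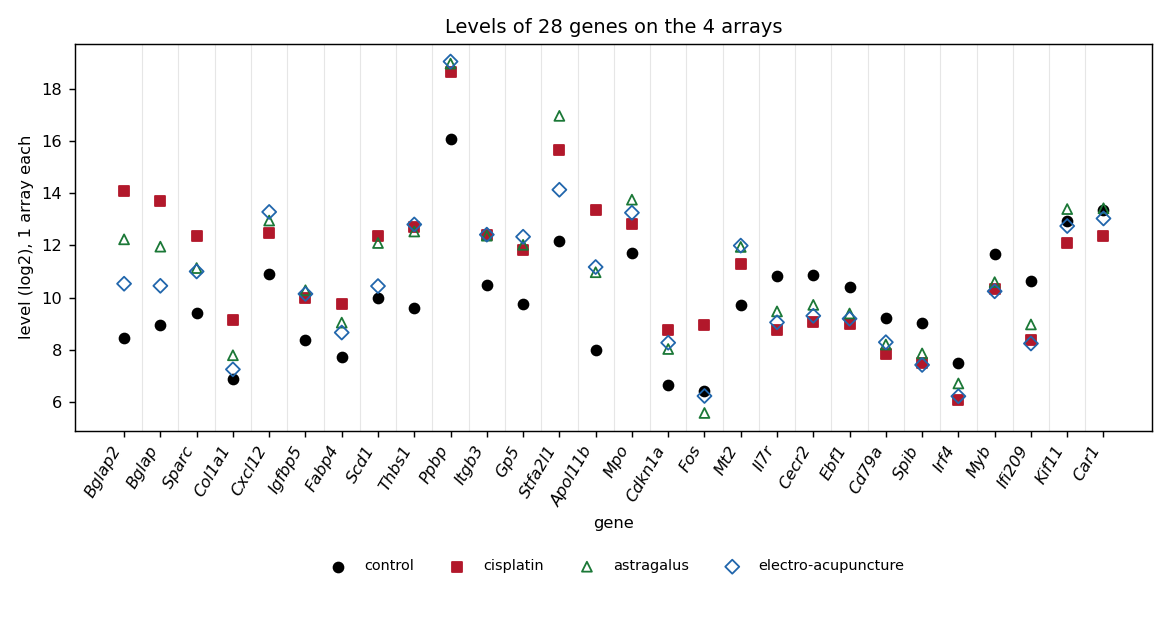
Log2 levels (y) of 28 genes (x) on the control, cisplatin, astragalus and electro-acupuncture arrays, 1 point per array. From Bglap2 to Mt2 the cisplatin point lies above control, most at Bglap2 (8.47 and 14.09); from Il7r to Car1 it lies below, most at Ifi209 (10.63 and 8.38).

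Of the 136 higher and 56 lower protein-coding genes at 2-fold, some lie outside every list. On the higher side Clca3a1, of the calcium-activated chloride channel regulator family, read 7.23 on control, 9.35 on cisplatin, 9.04 on astragalus and 8.78 on electro-acupuncture, and its neighbour Clca3a2 was 1.44 higher. Rgs18, a regulator of G protein signals abundant in platelets, was 1.26 higher, and Parvb and Rsu1, of the integrin-linked kinase complex, were 1.01 and 1.48. Cavin2 (a coat protein of caveolae) was 1.39, Igfbp7, a matrix-associated binding protein, 1.03, and Cdo1 (cysteine dioxygenase) 1.32. G0s2, an inhibitor of fat breakdown, read 8.05, 9.18, 7.53 and 8.13 and was high on cisplatin only. Lrrc8b, a subunit of volume-regulated anion channels, and Ppic, a cyclophilin, were both 1.57 higher. Slc25a5, an ADP/ATP carrier, was 1.02 and Hspa9, a mitochondrial chaperone, 1.08. On the lower side Mctp2, a calcium-binding membrane protein, was -1.42, and Gch1, the entry enzyme of tetrahydrobiopterin synthesis, read 9.37, 7.97, 9.87 and 8.59. Fahd1, a mitochondrial hydrolase, was -1.24, Lrmp, a membrane protein of lymphoid cells, -1.20 and Pkhd1l1 -1.18. Olfr883, an odorant receptor gene, was at 6.14 on control and under the floor at 4.81 on cisplatin. Slfn14, a ribosome-associated nuclease of platelets and red cell precursors, was -1.30 and Serinc5, a membrane protein, -1.05. Rcor3, a corepressor, was -1.47 from its brightest cluster, whose identifier is marked as unmapped. Its other clusters lay between -0.31 and 0.01, and the mean of all its clusters was -0.40, so its value is uncertain.

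Gene types other than protein-coding differed in how they leaned. Of 2646 pseudogenes 172 (6.50%) were at least 2-fold higher and 12 (0.454%) lower, with a median of 0.16, against 1.21% and 0.499% of protein-coding genes. The largest were Gm6166 at 2.36, the actin pseudogene Actg-ps1 at 2.11 and Gm5621 at 2.03, and on the lower side Gm5815 was -2.62 and Gm26254 -2.05. Pseudogenes can share sequence with parent genes, which makes their values uncertain. Genes for small RNAs leaned the other way: 36 of 586 snRNA genes (6.14%), 23 of 546 snoRNA genes (4.21%) and 14 of 533 miRNA genes (2.63%) were at least 2-fold lower, and 4, 9 and 3 were higher. Long non-coding RNA genes were 2-fold higher in 9 and lower in 5 of 1087, with Gm4013 at 1.5, Gm11747 at 1.42 and Gm16894 at 1.33 the largest and Gm3942 at -1.10 the lowest. Rnu5g, a U5 spliceosomal RNA gene, read 16.12 on control, 12.96 on cisplatin, 10.37 on astragalus and 11.32 on electro-acupuncture. The snRNA gene models Gm23287 and Gm24043 were -3.15 and -3.12, and both ran in the order of Rnu5g, highest on control and lowest on astragalus. Gm25284, Gm23111 and Gm22305 were 1.95, 1.49 and 1.29 higher. Rnu5g has 2 clusters, of which only the brighter was read. Whether snRNA or snoRNA genes share sequence with each other was not checked, so their counts may not be of separate readings. Among snoRNA genes Snora62 was 2.27 and Snord73a 2.14 higher, and Gm25848 and Gm25776 were -2.38 and -2.16. The mitochondrial lysine tRNA gene mt-Tk read 14.08, 16.07, 12.86 and 13.28 and was highest on cisplatin. Of 27 guide RNA genes 3 were at least 2-fold higher and 4 lower. Gm24289, Gm26413 and Gm23505 were 1.56, 1.12 and 1.0 higher, and Gm25492 was -2.30, Gm25820 -1.48 and Scarna6 -1.16.

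**Figure D5:**
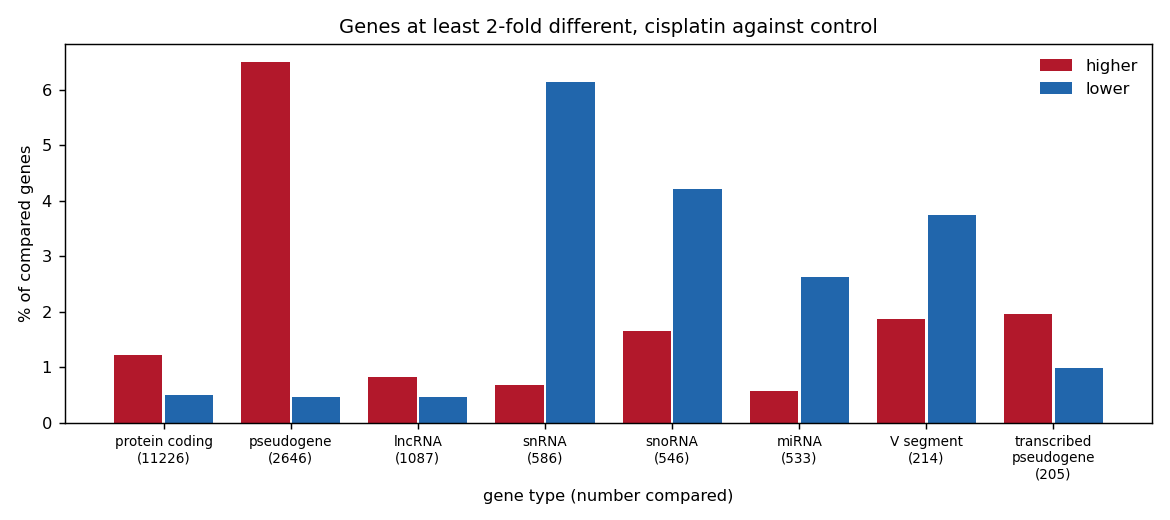
For each gene type (x, number compared in brackets) the percent of compared genes (y) that were at least 2-fold higher (red) or lower (blue) on the cisplatin than on the control array. Pseudogenes lean to higher values (6.50% against 0.454%), and snRNA (0.683% against 6.14%), snoRNA and miRNA genes to lower ones.

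MicroRNA genes were lower in 340 and higher in 177 of 533 compared cases. Each mature miRNA pairs with its targets through a seed, bases 2 to 8, and the mature forms of the leading genes are shown for their seeds. They are from RefSeq on GRCm38.p6, where 427 of the compared miRNA genes had a mature sequence, and capitals mark the seed. Whether a cluster reports the mature form or its precursor is not given in the sources used here.
miR-1955-5p: aGUCCCAGgaugcacugcagcuuuu
miR-378c: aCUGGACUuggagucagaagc
miR-15a-5p: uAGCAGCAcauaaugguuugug
miR-195a-5p: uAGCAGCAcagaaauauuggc
miR-195b: uAGCAGCAcagaaauaguagaa
miR-692: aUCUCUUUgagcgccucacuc
miR-7067-3p: uGAUUGCUucccuccccacag
Mir1955 read 8.76 on control, 6.36 on cisplatin, 7.42 on astragalus and 7.28 on electro-acupuncture, and Mir378c read 8.40, 6.14, 7.94 and 7.09. Mir15a, whose family restrains BCL2 and cyclins, read 12.76, 11, 11.12 and 10.33. All 3 were highest on control. Of the compared genes with the seed of miR-15a, Mir195a was -0.65, Mir6419 -0.17 and Mir195b 0.40. On the higher side Mir7067 read 8.74, 11.28, 10.14 and 10.23, Mir692-1 read 12.92, 14.36, 14.58 and 13.72, and Mir1927 was 1.09 higher. Each had control as the lowest array. Mir378c and Mir1927 have 2 clusters each, of which only the brighter was read.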

How the data were processed

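The authors deposited log2 values, 1 for each cluster and array, from Affymetrix Expression Console, per the submitters' processing notes. Its version, summary method and normalization were not stated in the notes at hand. Trizol-extracted RNA (6 ug) was turned into biotin-labelled cRNA, per the labels' protocols. That the scale is log2 was judged from the range, 2.70 up to a ceiling of 19.93.

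Of 65956 clusters, 31258 carried 1 gene symbol after older and newer names of a gene were merged through a RefSeq table (GRCm38.p6, used for names and gene types); 1492 carried several and 33206 none, and these were named no further. Of 441 genes with several clusters, the brightest was used. A difference is cisplatin minus control, its fold is 2 to that power, and genes were counted by size at 2-fold (a log2 difference of 1). No test was run, because each group has 1 array. The counting was tested on simulated data. Python 3.11.15, pandas 2.3.3, numpy 2.4.6, scipy 1.17.1 and statsmodels 0.14.6 were used.

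The comparison and the 91 gene lists, which hold 2460 distinct genes of which 1860 were compared, were chosen with earlier results of these data known. A list is described by its counts and its median, beside those of all protein-coding genes. Named are the 25 protein-coding genes with the largest differences each way (unnamed models and antigen receptor segments passed over). List members with the largest differences or nearest the median are named too. So are up to 3 of the largest genes each way of several other types, 20 genes whatever their values, and further members where the text describes each. Of those 20, Trp53 and Thpo had no cluster of their own. Alternatives were no floor, a floor at the 75th percentile, both arrays above the floor, quantile normalization, a loess trend removed, arrays centred on their medians, and the mean of a gene's clusters.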

Additional observations from a re-analysis of the deposited data

Results flagged for a closer look

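Clusters outside the named genes also differed, and the comparisons above do not use them. Of 14570 clusters with no gene listed that passed the floor, 271 were at least 2-fold higher on the cisplatin than on the control array (1.86%) and 414 lower (2.84%), with a median of -0.05. Of 928 clusters that carry several gene symbols, 17 were at least 2-fold higher (1.83%) and 1 was lower (0.108%), with a median of 0.06.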

How the results depend on the processing

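Each of the 4 counts of 2-fold genes kept to within 1.5 times its value under all 7 alternatives. For protein-coding genes they ran from 115 (arrays centred on their medians) to 141 (no floor) higher and from 50 (quantile normalization) to 62 lower. Of the 136 higher and 56 lower genes, 124 and 46 were also past 2-fold after quantile normalization. Of 89 list medians, 14 changed sign under a scaling, all within 0.06 of 0. The medians that moved by 1.5-fold or more were those of apolipoprotein L genes (0.21 with no floor), bone matrix genes (1.33) and fat cell genes (0.88, both with the floor at the 75th percentile). That floor also moved the medians of integrin (0.67), niche (0.615), complement and coagulation (0.43), glucocorticoid (0.43), cathepsin and lysosome (0.34) and fatty acid synthesis genes (0.26), and turned the sign for endothelial (-0.24), MHC class II (0.02), p53 target (-0.04), cytokine receptor (-0.04), caspase (-0.03) and metalloproteinase genes (-0.06). With no floor the median of basophil genes turned from -0.11 to 0.08, that of T cell genes to -0.05, and that of niche genes was 0.15. The 25 named genes with the largest differences each way and the 20 fixed ones were followed through the alternatives: of those past 2-fold, Mpo (0.95 after quantile normalization) and Rcor3 (-0.40 as a mean of clusters) dropped below it, and none reversed. Other genes named near the threshold can lie on either side of it, since centring left 115 of the 136 higher genes past 2-fold. No paired analysis was possible because each group has 1 array. Differences of single genes near the floor of 5.235 or near the ceiling of 19.93 are the least certain, and no alternative stands in for replicate arrays.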
